A study of Mus musculus with 24 samples.

Results

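The 6 libraries described here compared CD8-sorted with CD4-sorted spleen cells of mice treated with LCL161, out of 24 libraries in the series. The libraries were chosen by their labels alone: the 3 columns of CD8-sorted cells and the 3 of CD4-sorted cells from LCL161-treated spleens. All mice were TCRα-/- and carried orthotopic pancreatic tumors grown from M8 organoids. LCL161 was given by oral gavage at 75 mg/kg every 3 days from day 4 for 3 doses, with tissues collected on day 12. Cells were gated by FACS as CD45+CD8+ or CD45+CD4+, and total RNA was sequenced in bulk. The CD8-sorted and CD4-sorted spleen cells of vehicle-treated mice, and those of tumors of LCL161-treated mice, served for comparison, with 3 libraries in each group and the same genotype and tumor throughout. The labels do not say whether the 3 libraries of a group came from separate mice, so the p-values measure the spread between these libraries.

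CD8 T cells read peptides on MHC class I and kill target cells with perforin and granzymes, whereas CD4 T cells read peptides on MHC class II and help other cells through cytokines and CD40 ligand. The fate of each is set by transcription factors, with ThPOK (Zbtb7b) holding the CD4 fate and Runx3 the CD8 fate. Mice without the T cell receptor alpha chain make no conventional alpha beta T cells. Their remaining T cells are gamma delta T cells and CD4+ cells that carry a beta chain without an alpha partner. LCL161 mimics SMAC, the natural antagonist of the cellular inhibitors of apoptosis cIAP1 (Birc2) and cIAP2 (Birc3), whose loss lets the kinase NIK (Map3k14) accumulate and start the alternative NF-kB pathway.

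The 6 libraries held 18155562 to 23528131 counts, against 15455728 to 25145426 in the whole series. Mitochondrial genes took 2.10 to 2.37% of counts in CD8-sorted cells and 1.93 to 2.38% in CD4-sorted cells. Of 20174 genes tested, 3515 passed an adjusted p of 0.05 between CD8-sorted and CD4-sorted cells, or 17.4%: 1603 were higher (7.95%) and 1912 lower (9.48%) in CD8-sorted cells, with a median log2 fold change over all genes of 0. "Rose" and "fell" are used below for genes past this threshold, in CD8-sorted relative to CD4-sorted cells. Adjusted p-values are from the quasi-likelihood test of edgeR with Benjamini-Hochberg adjustment over all genes, fitted to all 24 libraries so that every group lends to one estimate of the spread. Levels are CPM, counts scaled to each library's total, and compare one gene between libraries, not genes with each other. Of the genes past the threshold, 1945 differed by at least 2-fold (747 higher, 1198 lower), and 3181 had CD8-sorted and CD4-sorted values that did not overlap, against 29.1% of all genes tested that did not overlap. The count rested on some libraries more than on others: 1965 genes passed without CD8-sorted replicate 2 and 1937 without CD8-sorted replicate 3. It was also lower, at 1381, when the model was fitted to these 6 libraries alone. Vehicle spleen fitted to its own libraries gave 2608 calls, against 2302 with all 24, and LCL161 tumor 558, against 580. Replicate pairs differed by a chi-square per gene of 68.3 to 134.9 in CD4-sorted and 23.7 to 62.6 in CD8-sorted cells of LCL161 spleen. Whether the shared estimate understates the spread of these 6 libraries was not tested. Among the genes named below, Cd3e, Tnfrsf1b, Tap2, Cd86, Bcl2, Ncald, Sla2, Ifngr1 and Traj42 passed in every fit that left out 1 library but not in the fit to these 6 libraries alone (edgeR adjusted p from 0.051 to 0.15). Each gene list below was counted the same way, and 7.95% and 9.48% are the shares to read it against.

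The coreceptor genes matched the gates. Cd8a, which encodes the CD8 alpha chain (chromosome 6, 71373427 to 71379173), had 623, 565 and 776 CPM in CD8-sorted cells, against 0.502, 0.409 and 0.963 CPM in CD4-sorted cells (log2 fold change 10.02 ± 0.69 SE, edgeR adjusted p = 7.3e-08). Cd8b1, the beta chain, had 500.03, 703 and 731 CPM in CD8-sorted cells, against 16.8, 17.8 and 18.1 CPM in CD4-sorted cells (log2 fold change 5.20 ± 0.67 SE, edgeR adjusted p = 5.5e-05). Every CD8-sorted library lay above every CD4-sorted one for both chains, but Cd8b1 was not at 0 in CD4-sorted cells. Cd4 (chromosome 6, 124864692 to 124888221) had 10.9, 7.07 and 8.05 CPM in CD8-sorted cells, against 1430.4, 1098 and 1248 CPM in CD4-sorted cells (log2 fold change -7.18 ± 0.39 SE, edgeR adjusted p = 3.6e-09). The CD4 fate factor Zbtb7b had 2.31, 3.07 and 2.94 CPM in CD8-sorted cells, against 52.3, 34.8 and 34.2 CPM in CD4-sorted cells (log2 fold change -3.86 ± 0.23 SE, edgeR adjusted p = 7.5e-09). Cd40lg, the ligand through which helper cells license B cells and dendritic cells, had 0.337, 1.04 and 1.13 CPM in CD8-sorted cells, against 133, 125 and 148 CPM in CD4-sorted cells (log2 fold change -7.34 ± 0.48 SE, edgeR adjusted p = 4.2e-08). None of these lineage calls ended when a library was left out. Runx3 had 129.9, 89.05 and 108 CPM in CD8-sorted cells, against 83.3, 55.8 and 82.1 CPM in CD4-sorted cells (log2 fold change 0.56 ± 0.24 SE, edgeR adjusted p = 0.12), so its groups did not overlap but the difference missed the threshold. Of the CD8 lineage list 7 of 10 tested rose and 0 fell (median log2 fold change 3.11), and of the CD4 lineage list 1 of 10 tested rose and 6 fell (median log2 fold change -2.16). The exception among the CD4 lineage genes was the chromatin organizer Satb1, at 349, 362 and 312 CPM in CD8-sorted cells, against 131, 55.6 and 94.9 CPM in CD4-sorted cells (log2 fold change 1.86 ± 0.38 SE, edgeR adjusted p = 0.0023). Cd5, a negative regulator of receptor signaling, had 53.1, 52.9 and 55.3 CPM in CD8-sorted cells, against 281, 596 and 251 CPM in CD4-sorted cells (log2 fold change -2.81 ± 0.46 SE, edgeR adjusted p = 0.00044). Gata3 had 38.2, 31.7 and 40.3 CPM in CD8-sorted cells, against 111, 96.3 and 107 CPM in CD4-sorted cells (log2 fold change -1.51 ± 0.21 SE, edgeR adjusted p = 9.5e-05).

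**Figure D1:**
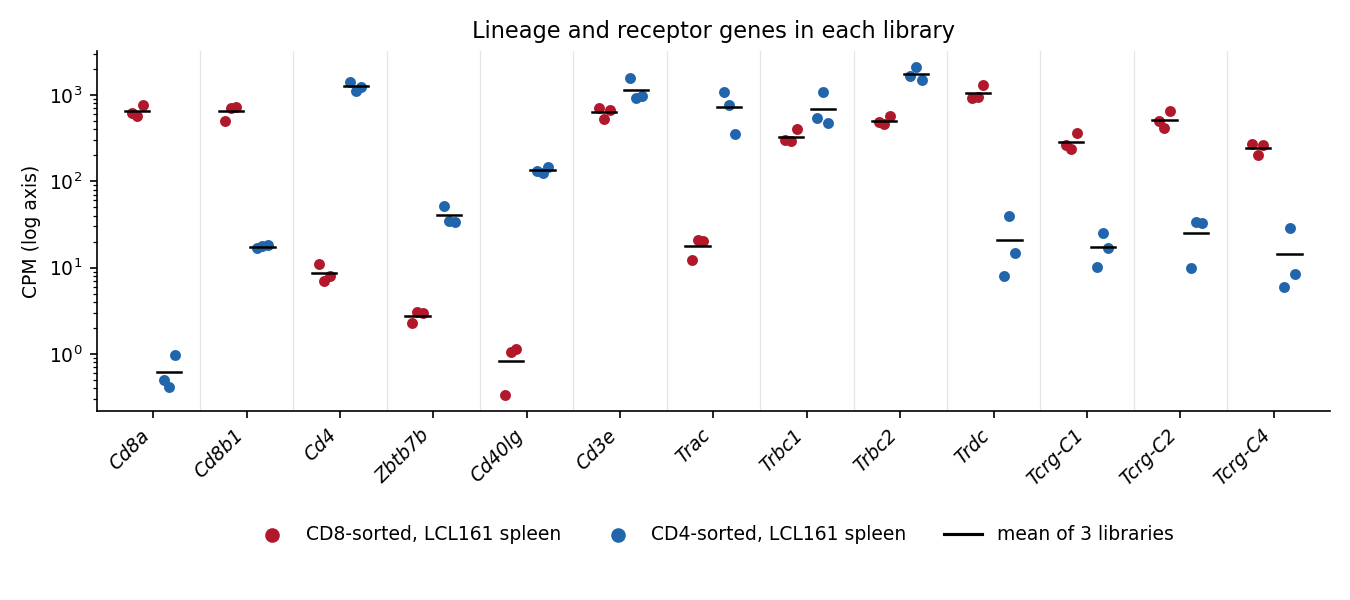
Level of lineage and T cell receptor genes in each library, in CPM on a log axis; points are the 3 libraries of CD8-sorted cells (left of each pair) and CD4-sorted cells (right) from LCL161 spleen, and bars are means. Cd8a and the gamma and delta constant genes (Trdc, Tcrg-C1, Tcrg-C2, Tcrg-C4) were high in CD8-sorted cells, while Cd4, Zbtb7b, Cd40lg, Trac and Trbc2 were high in CD4-sorted cells.

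The gates differed in which receptor genes they carried. Trdc, which encodes the delta constant region (chromosome 14, 54142851 to 54148868), had 912, 941 and 1292 CPM in CD8-sorted cells, against 7.99, 39.4 and 14.97 CPM in CD4-sorted cells (log2 fold change 5.65 ± 1.16 SE, edgeR adjusted p = 0.0025). The gamma constant genes moved with it. Tcrg-C1 had 260.4, 236 and 364 CPM in CD8-sorted cells, against 10.05, 24.9 and 16.7 CPM in CD4-sorted cells (log2 fold change 4.06 ± 0.73 SE, edgeR adjusted p = 0.00084). Tcrg-C2 had 495, 414 and 649 CPM in CD8-sorted cells, against 9.96, 33.4 and 32.7 CPM in CD4-sorted cells (log2 fold change 4.36 ± 0.77 SE, edgeR adjusted p = 0.00078). Tcrg-C3 had 68.7, 65.5 and 87.7 CPM in CD8-sorted cells, against 0.914, 3.76 and 2.98 CPM in CD4-sorted cells (log2 fold change 4.85 ± 0.81 SE, edgeR adjusted p = 0.00049). All 3 CD8-sorted libraries exceeded all CD4-sorted ones for each of these genes, and relative to their level the CD4-sorted libraries spread more widely. Tcrg-C4 had 268, 204 and 262 CPM in CD8-sorted cells, against 6.03, 28.8 and 8.45 CPM in CD4-sorted cells (log2 fold change 4.08 ± 1.10 SE, edgeR adjusted p = 0.015). The Tcrg-C4 call ended without CD4-sorted replicate 1 or 3 (edgeR adjusted p from 0.056 to 0.058). Trac, the alpha constant gene (chromosome 14, 54220521 to 54224206), ran the other way, at 12.2, 21.1 and 20.2 CPM in CD8-sorted cells, against 1082, 758 and 353 CPM in CD4-sorted cells (log2 fold change -5.36 ± 0.70 SE, edgeR adjusted p = 6.5e-05). The labels do not say which part of the alpha gene is disrupted, so reads of Trac check nothing about the genotype. Trbc2, a beta constant gene, had 481, 457 and 577 CPM in CD8-sorted cells, against 1669.9, 2104 and 1486 CPM in CD4-sorted cells (log2 fold change -1.80 ± 0.29 SE, edgeR adjusted p = 0.00038). Trbc1 had 298, 292 and 402 CPM in CD8-sorted cells, against 543, 1072 and 470.4 CPM in CD4-sorted cells (log2 fold change -1.07 ± 0.46 SE, edgeR adjusted p = 0.12). Of the 8 constant genes, 5 rose, 2 fell and 1 missed the threshold. In these bulk samples fewer cells of a type and less RNA per cell cannot be told apart, here and in every result below.

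Delta and gamma variable segments that passed were all higher in CD8-sorted cells, while segments named as alpha or beta passed in both directions. Segments were grouped by the start of their symbols, so any segment that alpha and delta chains share counted as alpha. Use of such segments with the delta chain was not tested. The summed level of the delta variable segments was 88.1, 108 and 152 CPM in CD8-sorted cells, against 0.3198, 0.4501 and 0.306 CPM in CD4-sorted cells, and 5 of 5 tested rose. Among them Trdv2-2 had 38.9, 45.8 and 82.5 CPM in CD8-sorted cells, against 0.228, 0.0818 and 0.0876 CPM in CD4-sorted cells (log2 fold change 8.67 ± 1.00 SE, edgeR adjusted p = 2.4e-05). Trdv1 had 10.6, 17.4 and 13.4 CPM in CD8-sorted cells, against 0, 0.164 and 0.0438 CPM in CD4-sorted cells (log2 fold change 7.47 ± 0.94 SE, edgeR adjusted p = 4.8e-05). The gamma variable segments summed to 299, 273 and 394 CPM in CD8-sorted cells, against 4.93, 18.4 and 13.3 CPM in CD4-sorted cells, and 6 of 7 tested rose, with Trgv2 at 149, 136 and 204 CPM in CD8-sorted cells, against 2.38, 6.91 and 8.76 CPM in CD4-sorted cells (log2 fold change 4.76 ± 0.76 SE, edgeR adjusted p = 0.00034). Every CD8-sorted library was above every CD4-sorted one in both sums. The alpha variable segments summed to 150.5, 148 and 175 CPM in CD8-sorted cells, against 893, 617 and 313 CPM in CD4-sorted cells, and of 67 tested 9 rose and 8 fell. The beta variable segments summed to 51.5, 77.4 and 83.8 CPM in CD8-sorted cells, against 868, 943 and 617 CPM in CD4-sorted cells, and of 21 tested 4 rose and 3 fell. The alpha joining segments summed to 0.144, 0.438 and 0.5399 CPM in CD8-sorted cells, against 119.95, 84.5 and 43.04 CPM in CD4-sorted cells, and of 12 tested 0 rose and 1 fell. Single segments in the CD4-sorted libraries were uneven: Traj42 was at 0 CPM in each library of CD8-sorted cells, against 106, 0.614 and 19.4 CPM in CD4-sorted cells, and Trav7-4 at 0 CPM in each library of CD8-sorted cells, against 500.5, 110.4 and 110.5 CPM in CD4-sorted cells. The beta segment Trbv12-1 had 2.5998, 2.74 and 3.24 CPM in CD8-sorted cells, against 719, 188 and 307 CPM in CD4-sorted cells (log2 fold change -7.14 ± 1.43 SE, edgeR adjusted p = 0.0021). Trbv12-2 had 5.01, 5.81 and 4.66 CPM in CD8-sorted cells, against 54.998, 675 and 4.598 CPM in CD4-sorted cells, with CD4-sorted replicate 1 highest for Trbv12-1 and replicate 2 for Trbv12-2. Against a floor of 3 counts per library, Trav7-4 was at least 1582-fold lower in CD8-sorted cells. With limma voom and sample weights, Trav7-4 (adjusted p = 0.16), Trdv1 (adjusted p = 0.053) and Traj42 did not pass. Trav7-4 and Trbv12-1 have near-identical copies, and the Tcrg constant genes are similar to each other, so the share of reads given to each copy is uncertain. Trdc also overlaps Trdv5 on the opposite strand, and with the strand setting of the counts not given in the sources used here the reads of both cannot be told apart.

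Other genes of gamma delta T cells did not all follow the receptor. Of that list 7 of 13 tested rose and 2 fell (median log2 fold change 3.48). Cd163l1, a scavenger receptor of the SCART family found on gamma delta T cells, had 165, 152 and 139 CPM in CD8-sorted cells, against 2.101, 1.35 and 4.25 CPM in CD4-sorted cells (log2 fold change 5.89 ± 0.94 SE, edgeR adjusted p = 0.00034). Maf, a transcription factor of both gamma delta and follicular helper cells, had 2.21, 3.73 and 5.497 CPM in CD8-sorted cells, against 260.3, 163 and 114 CPM in CD4-sorted cells (log2 fold change -5.55 ± 0.62 SE, edgeR adjusted p = 1.7e-05), so this member was low in all 3 CD8-sorted libraries. The genes of the shared receptor complex that passed were all lower in CD8-sorted cells. Of the 20 genes of the CD3 complex and proximal signaling, 0 rose and 7 fell (median log2 fold change -0.34). Cd3e had 714, 528 and 665 CPM in CD8-sorted cells, against 1568, 914 and 968 CPM in CD4-sorted cells (log2 fold change -0.85 ± 0.18 SE, edgeR adjusted p = 0.0030). The signal chain Cd247 had 203, 199.96 and 238 CPM in CD8-sorted cells, against 717, 446 and 429 CPM in CD4-sorted cells (log2 fold change -1.31 ± 0.24 SE, edgeR adjusted p = 0.0011). The kinase Zap70 that binds it had 162, 88.3 and 119 CPM in CD8-sorted cells, against 541, 304 and 307 CPM in CD4-sorted cells (log2 fold change -1.64 ± 0.30 SE, edgeR adjusted p = 0.0011). Cd28, the costimulatory receptor, had 38.03, 57.3 and 54.9 CPM in CD8-sorted cells, against 237, 246 and 148 CPM in CD4-sorted cells (log2 fold change -2.07 ± 0.25 SE, edgeR adjusted p = 3.4e-05), with no overlap between the groups. Lck, a proximal kinase, did not pass (edgeR adjusted p = 0.45).

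Markers of other cells were present in both gates. The summed level of 15 conventional dendritic cell markers was 1066, 2741 and 1638 CPM in CD8-sorted cells, against 489, 876 and 1211 CPM in CD4-sorted cells. That of 13 MHC class II presentation genes was 7339, 20319 and 11737 CPM in CD8-sorted cells, against 8040.5, 8426 and 5632 CPM in CD4-sorted cells. CD8-sorted replicate 2 was highest for both sums. Of the dendritic list 6 of 15 tested rose and 0 fell (median log2 fold change 1.63), with 9 rises without CD8-sorted replicate 1. Naaa, a lysosomal hydrolase of cross-presenting dendritic cells, had 89.5, 827 and 410.4 CPM in CD8-sorted cells, against 10.6, 14.2 and 12.7 CPM in CD4-sorted cells (log2 fold change 5.14 ± 0.67 SE, edgeR adjusted p = 5.7e-05). Xcr1, their chemokine receptor, had 18.5, 126 and 68.8 CPM in CD8-sorted cells, against 3.33, 1.31 and 7.66 CPM in CD4-sorted cells (log2 fold change 4.12 ± 0.64 SE, edgeR adjusted p = 0.00026). Batf3, the factor they need, had 8.47, 25.4 and 12.9 CPM in CD8-sorted cells, against 0.731, 0.859 and 1.27 CPM in CD4-sorted cells (log2 fold change 4.02 ± 0.69 SE, edgeR adjusted p = 0.00057). The integrin Itgax (CD11c) had 185, 129 and 131 CPM in CD8-sorted cells, against 7.67, 21.7 and 41.2 CPM in CD4-sorted cells (log2 fold change 2.65 ± 0.50 SE, edgeR adjusted p = 0.0013). A class of mouse dendritic cells carries CD8 alpha on its surface, and the gate as labelled named no T cell marker. Flt3 and Clec9a were short of the threshold. Flt3 had 39.4, 160.3 and 83.7 CPM in CD8-sorted cells, against 10.6, 33.7 and 47.6 CPM in CD4-sorted cells (log2 fold change 1.63 ± 0.61 SE, edgeR adjusted p = 0.072). Clec9a had 5.01, 34.1 and 16.6 CPM in CD8-sorted cells, against 0.228, 4.17 and 3.68 CPM in CD4-sorted cells (log2 fold change 2.77 ± 0.97 SE, edgeR adjusted p = 0.055). Of the MHC class II list 2 of 13 tested rose and 0 fell (median log2 fold change 0.51), Cd86 and H2-DMb1. Cd86 had 36.3, 124 and 82.2 CPM in CD8-sorted cells, against 11.5, 30.7 and 24.8 CPM in CD4-sorted cells (log2 fold change 1.86 ± 0.41 SE, edgeR adjusted p = 0.0045). H2-DMb1 had 68.7, 270.1 and 152 CPM in CD8-sorted cells, against 46.7, 52.3 and 50.8 CPM in CD4-sorted cells (log2 fold change 1.71 ± 0.51 SE, edgeR adjusted p = 0.028). The H2-DMb1 call ended without any one of 5 libraries, CD8-sorted replicate 2 or 3 or CD4-sorted replicate 1, 2 or 3, and its log2 fold change was 1.13 without CD8-sorted replicate 2.

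Sums of the other marker lists were as follows. Neutrophil markers summed to 107, 607 and 303 CPM in CD8-sorted cells, against 288, 1161 and 2847 CPM in CD4-sorted cells, highest in CD4-sorted replicate 3, and 2 of 16 fell. Erythroid and platelet markers summed to 80.1, 512 and 259.8 CPM in CD8-sorted cells, against 222, 509.9 and 11811 CPM in CD4-sorted cells, so that 1 CD4-sorted library stood far above the other 5. Hbb-bs, a beta globin, had 15.4, 129 and 64.003 CPM in CD8-sorted cells, against 51.8, 126 and 3133 CPM in CD4-sorted cells (log2 fold change -3.99 ± 1.54 SE, edgeR adjusted p = 0.080). Slc4a1, the red cell anion exchanger, had 4.38, 10.8 and 5.01 CPM in CD8-sorted cells, against 5.76, 23.1 and 478 CPM in CD4-sorted cells (log2 fold change -4.65 ± 1.35 SE, edgeR adjusted p = 0.028). The Slc4a1 call ended without CD8-sorted replicate 1, 2 or 3 or CD4-sorted replicate 3 (edgeR adjusted p from 0.072 to 0.46), with a log2 fold change of -1.12 without CD4-sorted replicate 3. Plasmacytoid dendritic cell markers summed to 968, 992 and 897 CPM in CD8-sorted cells, against 1024, 1451 and 1798 CPM in CD4-sorted cells, with 1 of 15 lower. B cell markers summed to 1515, 1515 and 1063 CPM in CD8-sorted cells, against 1708, 2513 and 1311 CPM in CD4-sorted cells. In the B cell list, edgeR's quasi-likelihood test called 0 of 16, with 1 at an unadjusted p under 0.05, and DESeq2 called 0 and limma voom 4. Monocyte and macrophage markers summed to 1171, 1535 and 1498 CPM in CD8-sorted cells, against 377, 583 and 1004 CPM in CD4-sorted cells, with 2 of 19 higher. Plasma cell genes summed to 2610.3, 7641 and 4969 CPM in CD8-sorted cells, against 5091, 9338 and 10893 CPM in CD4-sorted cells, with 1 of 16 lower, Prdm1. The Prdm1 call ended without CD8-sorted replicate 1, 2 or 3 or CD4-sorted replicate 2 or 3 (edgeR adjusted p from 0.071 to 0.17). NK cell and innate lymphoid markers summed to 409, 428 and 505 CPM in CD8-sorted cells, against 272, 422 and 438 CPM in CD4-sorted cells, with 2 of 12 higher and 1 lower. Mast cell and basophil markers (42.5, 84.1 and 52.1 CPM in CD8-sorted cells, against 64.5, 103 and 89.6 CPM in CD4-sorted cells) and pancreatic epithelial markers (15.8, 20.8 and 32.3 CPM in CD8-sorted cells, against 43.99, 33.1 and 25.96 CPM in CD4-sorted cells) were low in all 6 libraries. In the mast cell list edgeR called 0 of 11, with 0 at an unadjusted p under 0.05, and DESeq2 called 0 and limma voom 0. The part of these cells in the results was not tested.

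**Figure D2:**
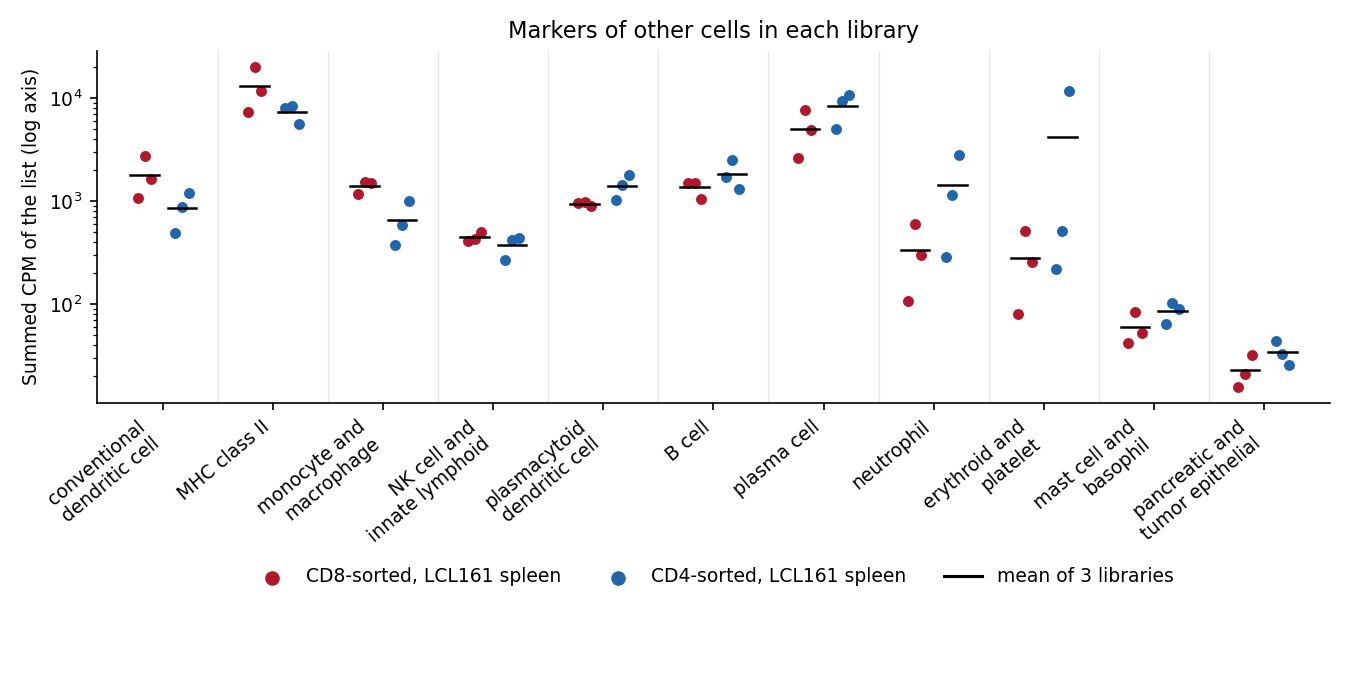
Summed CPM of marker lists of other cell types in each library, on a log axis; points are the 3 libraries of CD8-sorted cells (left of each pair) and CD4-sorted cells (right) from LCL161 spleen, and bars are means. The dendritic cell sum was highest in CD8-sorted replicate 2 (2741 CPM), and the erythroid sum reached 11811 CPM in CD4-sorted replicate 3.

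More cytotoxic genes were higher than lower in CD8-sorted cells among those that passed. Of 20 cytotoxic genes, 11 of 19 tested rose and 1 fell (median log2 fold change 1.48), and 9 or 10 rose when any 1 library was left out. Gzma, a tryptase of the killing granule (chromosome 13, 113093825 to 113100981), had 413, 445 and 1219.5 CPM in CD8-sorted cells, against 14.1, 7.45 and 7.3999 CPM in CD4-sorted cells (log2 fold change 6.17 ± 0.79 SE, edgeR adjusted p = 5.5e-05). Gzmb, the granzyme that activates caspases (chromosome 14, 56258838 to 56262260), had 453, 310.1 and 897 CPM in CD8-sorted cells, against 61.8, 34.04 and 32.2 CPM in CD4-sorted cells (log2 fold change 3.70 ± 0.69 SE, edgeR adjusted p = 0.0012). The pore-forming Prf1 (chromosome 10, 61297833 to 61304680) had 244, 234 and 263 CPM in CD8-sorted cells, against 25.6, 17.3 and 15.7 CPM in CD4-sorted cells (log2 fold change 3.66 ± 0.79 SE, edgeR adjusted p = 0.0036). The lowest CD8-sorted library exceeded the highest CD4-sorted one for all 3 genes, and CD8-sorted replicate 3 was highest for each. Gzmm had 45.4, 58.9 and 58.5 CPM in CD8-sorted cells, against 2.74, 1.72 and 6.17 CPM in CD4-sorted cells (log2 fold change 3.94 ± 0.50 SE, edgeR adjusted p = 5.5e-05). The granule membrane gene Nkg7 had 1676, 1478 and 2126 CPM in CD8-sorted cells, against 333, 188 and 552 CPM in CD4-sorted cells (log2 fold change 2.30 ± 0.44 SE, edgeR adjusted p = 0.0014). The death ligand Fasl had 91.1, 78.03 and 148 CPM in CD8-sorted cells, against 12.2, 13.3 and 35.5 CPM in CD4-sorted cells (log2 fold change 2.38 ± 0.46 SE, edgeR adjusted p = 0.0015). Ctsw, a cathepsin of cytotoxic cells, had 458, 484 and 679 CPM in CD8-sorted cells, against 165, 100.7 and 194 CPM in CD4-sorted cells (log2 fold change 1.82 ± 0.21 SE, edgeR adjusted p = 2.4e-05).

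The exception was Srgn, the granule proteoglycan, at 534, 665 and 856 CPM in CD8-sorted cells, against 1960.1, 1352 and 1272 CPM in CD4-sorted cells (log2 fold change -1.16 ± 0.22 SE, edgeR adjusted p = 0.0011). Ifng, the effector cytokine, did not separate the gates, at 64.5, 29.3 and 97.7 CPM in CD8-sorted cells, against 65.9, 32.1 and 197 CPM in CD4-sorted cells (log2 fold change -0.62 ± 0.63 SE, edgeR adjusted p = 0.53). Tbx21, the T-bet gene, had 266, 202 and 264 CPM in CD8-sorted cells, against 169.6, 106 and 189 CPM in CD4-sorted cells (log2 fold change 0.66 ± 0.21 SE, edgeR adjusted p = 0.037). The Tbx21 call ended without CD8-sorted replicate 1 or 3 or CD4-sorted replicate 1 or 2 (edgeR adjusted p from 0.0502 to 0.17). Eomes had 134, 93.3 and 109 CPM in CD8-sorted cells, against 23.7, 42.8 and 15.3 CPM in CD4-sorted cells (log2 fold change 2.04 ± 0.86 SE, edgeR adjusted p = 0.11).

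The promoters of Gzma, Gzmb and Prf1, which encode granule proteins and all rose, are shown. These 3 were picked after their values had been seen. Each line gives the 250 bases before the RefSeq start (GRCm38.p6), 5′ to 3′ on the gene's strand, with capitals marking TGTGGT or its reverse complement ACCACA, the core that Runx factors bind. The motif was chosen in the same way.
Gzma, chr13:113100982-113101231, minus strand: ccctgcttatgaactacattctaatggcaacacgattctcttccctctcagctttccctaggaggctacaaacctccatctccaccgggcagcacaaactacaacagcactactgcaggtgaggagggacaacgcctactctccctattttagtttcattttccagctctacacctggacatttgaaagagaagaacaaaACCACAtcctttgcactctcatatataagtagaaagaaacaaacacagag
Gzmb, chr14:56262335-56262584, minus strand: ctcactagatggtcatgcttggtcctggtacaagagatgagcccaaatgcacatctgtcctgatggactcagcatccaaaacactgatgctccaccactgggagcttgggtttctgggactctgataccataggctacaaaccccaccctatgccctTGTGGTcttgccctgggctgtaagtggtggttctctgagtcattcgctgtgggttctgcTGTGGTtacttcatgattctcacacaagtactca
Prf1, chr10:61297586-61297835, plus strand: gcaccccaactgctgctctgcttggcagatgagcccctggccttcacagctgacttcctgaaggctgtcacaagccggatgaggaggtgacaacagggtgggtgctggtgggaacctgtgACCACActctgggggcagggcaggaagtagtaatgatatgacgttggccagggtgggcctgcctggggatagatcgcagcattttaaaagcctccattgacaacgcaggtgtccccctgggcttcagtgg
The Gzma and Prf1 windows each held 1 match, on the reverse strand, and the Gzmb window held 2, on the forward strand. Among 14918 windows of the same length from genes tested here, 11.7% held the motif on either strand. The windows of Cd8a, Pdcd1, Il21 and Tnfrsf4 did not hold these letters. Most windows lack the motif, so its absence from these few cannot serve as a contrast. A link between the motif and the rises was not tested. A match describes letters in a window and is not a measured binding site.

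Of 27 NK and lectin-like receptor genes, 15 rose and 0 fell (median log2 fold change 2.10), and 12 to 14 rose when 1 library was left out, with 1 fall without CD4-sorted replicate 1. In that list limma voom called 8 higher and 1 lower, and DESeq2 16 higher and 2 lower. Klrk1, which encodes the activating receptor NKG2D, had 263, 293 and 449.8 CPM in CD8-sorted cells, against 5.98, 16.2 and 18.3 CPM in CD4-sorted cells (log2 fold change 4.64 ± 0.49 SE, edgeR adjusted p = 1.1e-05). Klrd1, the CD94 chain, had 250.1, 242 and 329.8 CPM in CD8-sorted cells, against 12.3, 17.7 and 35.1 CPM in CD4-sorted cells (log2 fold change 3.66 ± 0.37 SE, edgeR adjusted p = 7.8e-06). Its partner Klrc1 had 334, 334 and 493 CPM in CD8-sorted cells, against 11.1, 12.2 and 62.7 CPM in CD4-sorted cells (log2 fold change 3.76 ± 0.60 SE, edgeR adjusted p = 0.00032). Klrc2 had 75.7, 87.1 and 116 CPM in CD8-sorted cells, against 2.74, 4.38 and 14.01 CPM in CD4-sorted cells (log2 fold change 3.72 ± 0.48 SE, edgeR adjusted p = 5.6e-05). These 4 receptors were separated in every library. Klre1 had 99.6, 67.6 and 176 CPM in CD8-sorted cells, against 1.19, 1.06 and 1.62 CPM in CD4-sorted cells (log2 fold change 6.47 ± 0.84 SE, edgeR adjusted p = 5.8e-05), and the Ly49 genes summed to 38.8, 41.2 and 59.4 CPM in CD8-sorted cells, against 8.999, 17.6 and 24.5 CPM in CD4-sorted cells, with 8 of 14 higher. Klra5, one of them, was at 3.56, 4.55 and 3.53 CPM in CD8-sorted cells, against 0 CPM in each library of CD4-sorted cells, which is at least 29.8-fold higher against a floor of 3 counts per library. Klra5 did not pass with limma voom and sample weights (adjusted p = 0.20). The Ly49 genes are near-identical copies, so the split of reads among them is uncertain. Ncr1, which encodes NKp46 and marks NK cells, ran the other way at 2.46, 3.95 and 2.798 CPM in CD8-sorted cells, against 7.45, 16.7 and 18.4 CPM in CD4-sorted cells (log2 fold change -2.21 ± 0.78 SE, edgeR adjusted p = 0.058), short of the threshold. Klrg1 had 174, 82.8 and 224 CPM in CD8-sorted cells, against 17.2, 38.01 and 28.4 CPM in CD4-sorted cells (log2 fold change 2.52 ± 0.83 SE, edgeR adjusted p = 0.043). The Klrg1 call ended without CD8-sorted replicate 1, 2 or 3 or CD4-sorted replicate 1, 2 or 3 (edgeR adjusted p from 0.054 to 0.14).

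The genes of naive and central memory cells that passed were all higher in CD8-sorted cells. Of 18 members, 9 rose and 0 fell (median log2 fold change 0.82), and 7 or 8 rose when 1 library was left out. Without CD4-sorted replicate 3, 2 members fell. Dapl1, found in naive-like CD8 T cells, had 25.8, 35.4 and 22.97 CPM in CD8-sorted cells, against 0.228, 0.409 and 0.131 CPM in CD4-sorted cells (log2 fold change 6.73 ± 0.63 SE, edgeR adjusted p = 7.6e-06). Ly6c2, an antigen of memory CD8 T cells, had 958, 1146 and 1022 CPM in CD8-sorted cells, against 88.3, 172 and 218 CPM in CD4-sorted cells (log2 fold change 2.71 ± 0.49 SE, edgeR adjusted p = 0.00099). Groups did not overlap for either gene. Ccr7 had 298, 416 and 298 CPM in CD8-sorted cells, against 135, 78.7 and 57.1 CPM in CD4-sorted cells (log2 fold change 1.90 ± 0.62 SE, edgeR adjusted p = 0.040). The Ccr7 call ended without CD8-sorted replicate 1, 2 or 3 or CD4-sorted replicate 2 or 3 (edgeR adjusted p from 0.055 to 0.12). Il7r, the receptor of the survival cytokine IL-7, had 604, 671 and 619 CPM in CD8-sorted cells, against 176, 303 and 351 CPM in CD4-sorted cells (log2 fold change 1.19 ± 0.32 SE, edgeR adjusted p = 0.016). The Il7r call ended without CD8-sorted replicate 2 or CD4-sorted replicate 1 (edgeR adjusted p from 0.055 to 0.071). In the adhesion and residency list 5 of 22 tested rose and 3 fell (median log2 fold change 0.23), and Selplg, the P-selectin ligand, had 1148, 1442 and 1448 CPM in CD8-sorted cells, against 426, 461 and 696 CPM in CD4-sorted cells (log2 fold change 1.35 ± 0.16 SE, edgeR adjusted p = 2.9e-05). Itga1 had 12.9, 21.5 and 40.1 CPM in CD8-sorted cells, against 0.411, 0.982 and 3.503 CPM in CD4-sorted cells (log2 fold change 3.92 ± 0.60 SE, edgeR adjusted p = 0.00022). Cd69 had 373, 370.4 and 518 CPM in CD8-sorted cells, against 181, 179 and 255 CPM in CD4-sorted cells (log2 fold change 1.04 ± 0.23 SE, edgeR adjusted p = 0.0042). Itgae, the CD103 integrin, had 35.6, 121 and 99.8 CPM in CD8-sorted cells, against 1.87, 79.99 and 2.06 CPM in CD4-sorted cells (log2 fold change 1.61 ± 1.10 SE, edgeR adjusted p = 0.33), and CD4-sorted replicate 2 lay among the CD8-sorted libraries.

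Of 26 chemokine and receptor genes, 9 rose and 4 fell (median log2 fold change 1.92). Ccl5, which attracts effector T cells, had 2407, 2772 and 3585 CPM in CD8-sorted cells, against 652, 203 and 742 CPM in CD4-sorted cells (log2 fold change 2.46 ± 0.61 SE, edgeR adjusted p = 0.0097). Xcl1, the ligand of Xcr1, had 75.7, 41.2 and 53.6 CPM in CD8-sorted cells, against 5.57, 8.26 and 4.55 CPM in CD4-sorted cells (log2 fold change 3.21 ± 0.76 SE, edgeR adjusted p = 0.0073). Cxcl9 had 34.4, 65.6 and 45.5 CPM in CD8-sorted cells, against 1.69, 0 and 0.394 CPM in CD4-sorted cells (log2 fold change 6.14 ± 0.82 SE, edgeR adjusted p = 7.1e-05). Cxcl16 had 12.4, 70.6 and 39.95 CPM in CD8-sorted cells, against 1.46, 1.31 and 1.401 CPM in CD4-sorted cells (log2 fold change 4.88 ± 0.54 SE, edgeR adjusted p = 1.7e-05). CD8-sorted replicate 2 was highest for both, as for the dendritic cell sum, Dapl1, Ly6c2 and Ccr7, but not for Itgax. The cell source of Cxcl9 and Cxcl16 was not tested. The receptor Cx3cr1 had 72.02, 66.8 and 93.5 CPM in CD8-sorted cells, against 4.75, 5.77 and 8.41 CPM in CD4-sorted cells (log2 fold change 3.62 ± 0.54 SE, edgeR adjusted p = 0.00018). Ccr8, a receptor of helper cells, had 0.337, 1.48 and 2.21 CPM in CD8-sorted cells, against 18.5, 50.8 and 20.8 CPM in CD4-sorted cells (log2 fold change -4.48 ± 0.98 SE, edgeR adjusted p = 0.0040). Ccr4, of the helper 2 list, had 0.241, 0.0548 and 0.245 CPM in CD8-sorted cells, against 5.07, 15.6 and 8.41 CPM in CD4-sorted cells (log2 fold change -5.68 ± 1.13 SE, edgeR adjusted p = 0.0020). S1pr5, an egress receptor, had 11.1, 17.9 and 22.6 CPM in CD8-sorted cells, against 0, 0.491 and 0.306 CPM in CD4-sorted cells (log2 fold change 5.95 ± 1.18 SE, edgeR adjusted p = 0.0020).

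Follicular helper genes were lower in CD8-sorted cells. Of 15 members, 0 rose and 12 fell (median log2 fold change -3.72), and 12 or 13 fell when any 1 library was left out. Bcl6, the factor that sets the follicular fate, had 15.9, 18.5 and 12.7 CPM in CD8-sorted cells, against 93.96, 122 and 50.6 CPM in CD4-sorted cells (log2 fold change -2.50 ± 0.31 SE, edgeR adjusted p = 4.3e-05). Cxcr5, which guides cells into follicles, had 74.4, 69.8 and 50.7 CPM in CD8-sorted cells, against 722, 786 and 382 CPM in CD4-sorted cells (log2 fold change -3.28 ± 0.61 SE, edgeR adjusted p = 0.0011). Icos had 20.1, 16.9 and 35.5 CPM in CD8-sorted cells, against 390.4, 395 and 170.2 CPM in CD4-sorted cells (log2 fold change -3.72 ± 0.52 SE, edgeR adjusted p = 0.00011). Il21, the cytokine that helps germinal center B cells, had 0.722, 1.75 and 1.18 CPM in CD8-sorted cells, against 176, 219.8 and 209 CPM in CD4-sorted cells (log2 fold change -7.38 ± 1.39 SE, edgeR adjusted p = 0.0013). Il4 had 0, 0.0548 and 0.0491 CPM in CD8-sorted cells, against 11.5, 10.4 and 5.95 CPM in CD4-sorted cells (log2 fold change -7.87 ± 0.98 SE, edgeR adjusted p = 4.5e-05). No library of one gate overlapped the other for these 5 genes. Sostdc1, a secreted antagonist made by follicular T cells, had 0, 0.219 and 0.0982 CPM in CD8-sorted cells, against 472, 26.6 and 98.5 CPM in CD4-sorted cells (log2 fold change -10.85 ± 1.65 SE, edgeR adjusted p = 0.00032), with CD4-sorted replicate 1 highest. Tox2 had 44.6, 8.88 and 10.9 CPM in CD8-sorted cells, against 755, 654 and 254 CPM in CD4-sorted cells (log2 fold change -4.69 ± 1.08 SE, edgeR adjusted p = 0.0057). The adaptor Sh2d1a had 87.8, 58.1 and 87.1 CPM in CD8-sorted cells, against 447, 321 and 212 CPM in CD4-sorted cells (log2 fold change -2.07 ± 0.40 SE, edgeR adjusted p = 0.0016).

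Regulatory T cell genes were also lower: of 19 members, 0 rose and 14 fell (median log2 fold change -3.74), and 10 to 14 fell when 1 library was left out. Il1r2, a decoy receptor for IL-1, had 4.43, 4.33 and 3.88 CPM in CD8-sorted cells, against 739.8, 206 and 236 CPM in CD4-sorted cells (log2 fold change -6.55 ± 0.78 SE, edgeR adjusted p = 3.0e-05). Izumo1r, the folate receptor 4 gene, had 2.74, 1.59 and 1.23 CPM in CD8-sorted cells, against 304, 220.2 and 113 CPM in CD4-sorted cells (log2 fold change -6.83 ± 0.81 SE, edgeR adjusted p = 2.8e-05). Itgb8, an activator of TGF-beta, had 0.241, 0 and 0 CPM in CD8-sorted cells, against 29.2, 58.5 and 57.2 CPM in CD4-sorted cells (log2 fold change -9.08 ± 0.97 SE, edgeR adjusted p = 1.2e-05). Ctla4 had 6.64, 5.86 and 12.9 CPM in CD8-sorted cells, against 167, 147 and 129 CPM in CD4-sorted cells (log2 fold change -4.12 ± 0.73 SE, edgeR adjusted p = 0.00079). Tnfrsf4, the costimulatory receptor OX40, had 3.32, 3.29 and 7.07 CPM in CD8-sorted cells, against 920.2, 422 and 347 CPM in CD4-sorted cells (log2 fold change -6.94 ± 0.59 SE, edgeR adjusted p = 1.1e-06). Each of these was separated by gate in all 6 libraries. Foxp3, which defines regulatory T cells, behaved differently: it had 2.94, 3.45 and 3.04 CPM in CD8-sorted cells, against 8.82, 189 and 2.93 CPM in CD4-sorted cells (log2 fold change -4.41 ± 1.14 SE, edgeR adjusted p = 0.012), so that only CD4-sorted replicate 2 was far above the CD8-sorted libraries and replicate 3 lay just below their lowest. The Foxp3 change lost its call without CD8-sorted replicate 2 or 3 or CD4-sorted replicate 2 (edgeR adjusted p from 0.053 to 0.46), and its log2 fold change was -0.90 without CD4-sorted replicate 2. Several members, among them Tnfrsf4, Ctla4, Il10 and Tigit, are also genes of activated or follicular helper cells.

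The lists of inhibitory receptors and of early activation moved in both directions. Of 17 inhibitory receptor and exhaustion genes, 3 rose and 8 fell (median log2 fold change -0.71); 4 to 7 fell when 1 library was left out, the fewest without CD8-sorted replicate 3. Pdcd1, the PD-1 gene, had 47.5, 47.7 and 109 CPM in CD8-sorted cells, against 1289, 805 and 659 CPM in CD4-sorted cells (log2 fold change -3.75 ± 0.82 SE, edgeR adjusted p = 0.0041). Tigit had 34.7, 20.1 and 53.2 CPM in CD8-sorted cells, against 318, 206 and 152 CPM in CD4-sorted cells (log2 fold change -2.65 ± 0.46 SE, edgeR adjusted p = 0.00069). The exhaustion factor Tox had 45.4, 24.4 and 24.1 CPM in CD8-sorted cells, against 341, 337 and 211 CPM in CD4-sorted cells (log2 fold change -3.24 ± 0.59 SE, edgeR adjusted p = 0.0010). Havcr2 (TIM-3) rose, at 33.9, 94.6 and 60.7 CPM in CD8-sorted cells, against 8.09, 8.31 and 8.89 CPM in CD4-sorted cells (log2 fold change 2.90 ± 0.81 SE, edgeR adjusted p = 0.019). The Havcr2 call ended without CD8-sorted replicate 2 or CD4-sorted replicate 1, 2 or 3 (edgeR adjusted p from 0.0503 to 0.077). Of 26 activation genes, 3 rose and 8 fell (median log2 fold change -0.55). Egr1, induced by receptor signaling, had 45.2, 37.8 and 46.4 CPM in CD8-sorted cells, against 283, 274 and 161 CPM in CD4-sorted cells (log2 fold change -2.47 ± 0.27 SE, edgeR adjusted p = 1.5e-05). Egr2 had 33.5, 13.4 and 11.8 CPM in CD8-sorted cells, against 176, 141 and 106 CPM in CD4-sorted cells (log2 fold change -2.85 ± 0.52 SE, edgeR adjusted p = 0.00093). Batf, an AP-1 partner, had 88.9, 79.9 and 122 CPM in CD8-sorted cells, against 576, 248 and 253 CPM in CD4-sorted cells (log2 fold change -1.89 ± 0.27 SE, edgeR adjusted p = 0.00014). Irf4 had 35.3, 16.4 and 15.5 CPM in CD8-sorted cells, against 70.3, 73.4 and 83.8 CPM in CD4-sorted cells (log2 fold change -1.76 ± 0.36 SE, edgeR adjusted p = 0.0024). Myc was higher, at 263, 249 and 245 CPM in CD8-sorted cells, against 134, 115 and 110.03 CPM in CD4-sorted cells (log2 fold change 1.07 ± 0.24 SE, edgeR adjusted p = 0.0052). Among effector transcription factors 1 of 19 tested rose and 6 fell (median log2 fold change -0.02). Besides Bcl6, Bhlhe40 had 282, 152 and 339 CPM in CD8-sorted cells, against 928, 410.04 and 923 CPM in CD4-sorted cells (log2 fold change -1.55 ± 0.38 SE, edgeR adjusted p = 0.0095). The Bhlhe40 call ended without CD8-sorted replicate 2 (edgeR adjusted p = 0.059).

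**Figure D3:**
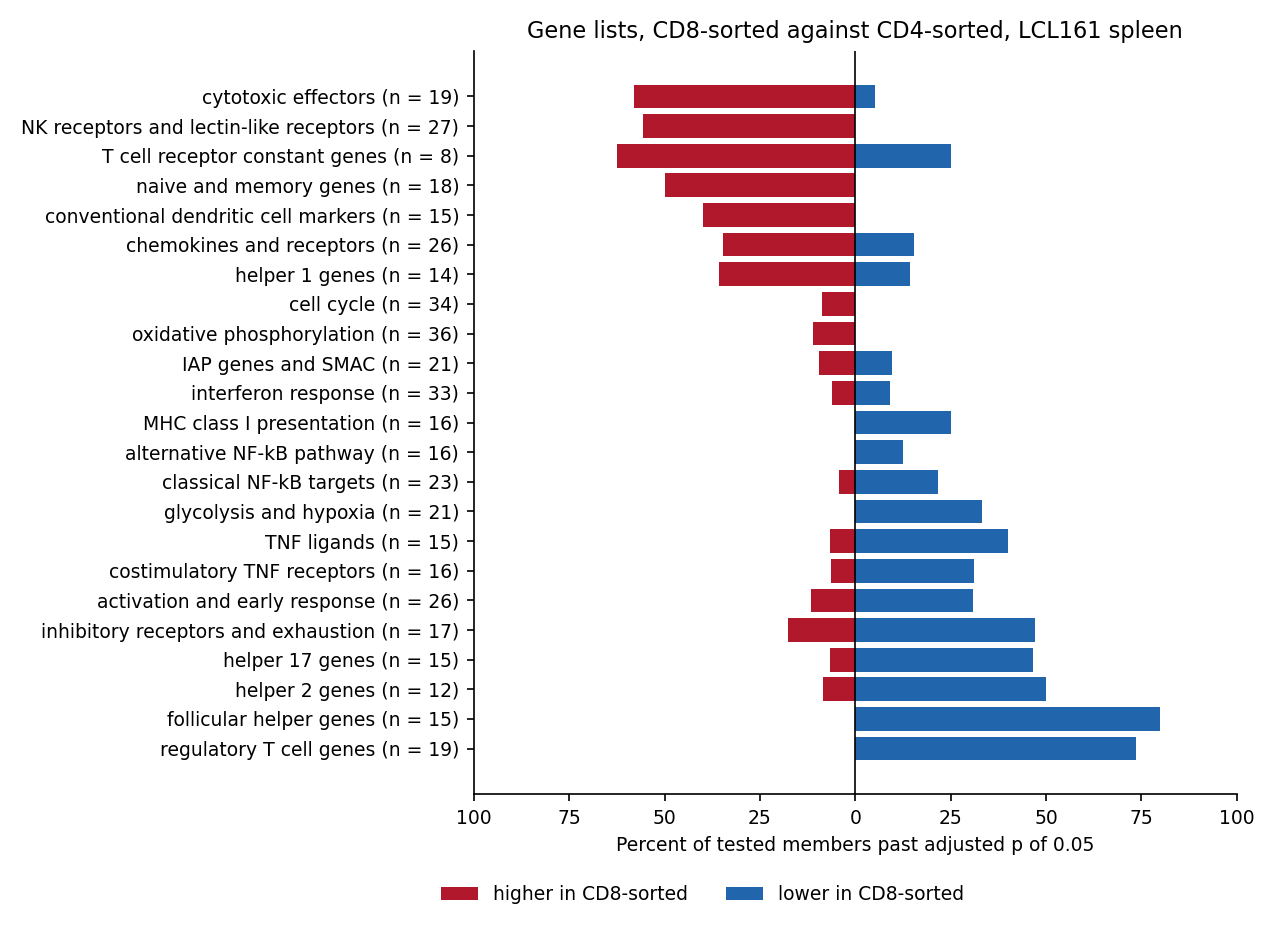
Percent of tested members of each gene list that passed an adjusted p of 0.05 in CD8-sorted against CD4-sorted cells of LCL161 spleen, with members higher in CD8-sorted cells to the left and members lower in CD8-sorted cells to the right of 0; the number tested stands in each label. Cytotoxic genes (11 of 19 higher) and NK receptor genes (15 of 27 higher) passed more often as higher than as lower. Follicular helper genes (12 of 15) and regulatory T cell genes (14 of 19) were mostly lower.

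Of 14 helper 1 genes tested, 5 rose and 2 fell (median log2 fold change 0.68), with 2 to 7 rises when 1 library was left out, the fewest without CD4-sorted replicate 2. Of 12 helper 2 genes, 1 rose and 6 fell (median log2 fold change -1.58), and of 15 helper 17 genes, 1 rose and 7 fell (median log2 fold change -1.89), with 4 falls without CD8-sorted replicate 2. Il17a was the member that rose, at 0, 1.21 and 5.301 CPM in CD8-sorted cells, against 0 CPM in each library of CD4-sorted cells, which is at least 16.6-fold higher against a floor of 3 counts per library and rested on CD8-sorted replicates 2 and 3; its call ended without CD8-sorted replicate 3 or CD4-sorted replicate 1, 2 or 3 (edgeR adjusted p from 0.059 to 0.13). Tmem176a had 19.7, 28.1 and 28.4 CPM in CD8-sorted cells, against 111, 70.99 and 169.7 CPM in CD4-sorted cells (log2 fold change -2.20 ± 0.48 SE, edgeR adjusted p = 0.0040), and it overlaps Tmem176b on the opposite strand, so their reads cannot be told apart. In the list of 31 tested cytokines and cytokine receptors, 5 rose and 9 fell (median log2 fold change -0.30). Lif had 0.578, 0.822 and 1.33 CPM in CD8-sorted cells, against 15.7, 20.05 and 20.8 CPM in CD4-sorted cells (log2 fold change -4.36 ± 0.71 SE, edgeR adjusted p = 0.00040). Tgfb1 had 108, 63.95 and 73.6 CPM in CD8-sorted cells, against 198, 164 and 204 CPM in CD4-sorted cells (log2 fold change -1.20 ± 0.16 SE, edgeR adjusted p = 9.1e-05). Il10 had 0.963, 0.822 and 0.736 CPM in CD8-sorted cells, against 16.1, 3.89 and 14.01 CPM in CD4-sorted cells (log2 fold change -3.74 ± 0.95 SE, edgeR adjusted p = 0.011). The Il10 call ended without CD8-sorted replicate 3 (edgeR adjusted p = 0.055). Ifngr1, the interferon gamma receptor chain, was higher, at 813, 1018 and 1270.4 CPM in CD8-sorted cells, against 206, 292 and 605 CPM in CD4-sorted cells (log2 fold change 1.49 ± 0.32 SE, edgeR adjusted p = 0.0038).

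Ligands and receptors of the TNF family, some of which signal through the proteins that LCL161 binds, were more often lower than higher among those that passed. Of 15 TNF ligands, 1 rose and 6 fell (median log2 fold change -0.45); the member that rose was Fasl. Tnfsf11 (RANKL) had 0.963, 2.47 and 3.09 CPM in CD8-sorted cells, against 78.4, 114 and 87.6 CPM in CD4-sorted cells (log2 fold change -5.42 ± 0.54 SE, edgeR adjusted p = 7.1e-06). Tnfsf8 (CD30 ligand) had 70.3, 66.9 and 56.6 CPM in CD8-sorted cells, against 450.1, 322 and 419.8 CPM in CD4-sorted cells (log2 fold change -2.62 ± 0.45 SE, edgeR adjusted p = 0.00061). Tnfsf13b, the B cell survival factor BAFF, had 1.25, 1.37 and 2.16 CPM in CD8-sorted cells, against 19.6, 10.7 and 7.53 CPM in CD4-sorted cells (log2 fold change -2.98 ± 0.54 SE, edgeR adjusted p = 0.00097). Lta had 18.3, 15.3 and 23.4 CPM in CD8-sorted cells, against 49.8, 44.02 and 52.3 CPM in CD4-sorted cells (log2 fold change -1.36 ± 0.34 SE, edgeR adjusted p = 0.0096). The Lta call ended without CD8-sorted replicate 2 (edgeR adjusted p = 0.054). Of 16 TNF receptors, 1 rose and 5 fell (median log2 fold change -0.51). Besides Tnfrsf4, Tnfrsf18 (GITR) had 68.8, 77.1 and 124 CPM in CD8-sorted cells, against 356, 231 and 190.2 CPM in CD4-sorted cells (log2 fold change -1.53 ± 0.25 SE, edgeR adjusted p = 0.00039). Tnfrsf14 (HVEM) had 4.43, 5.37 and 4.37 CPM in CD8-sorted cells, against 17.3, 9.04 and 11.997 CPM in CD4-sorted cells (log2 fold change -1.44 ± 0.25 SE, edgeR adjusted p = 0.00065). Tnfrsf1b, a receptor for TNF, had 265, 184 and 236 CPM in CD8-sorted cells, against 358, 498 and 378 CPM in CD4-sorted cells (log2 fold change -0.85 ± 0.18 SE, edgeR adjusted p = 0.0038). Groups did not overlap for any of these.

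Most genes of the NF-kB pathways and the drug's targets did not pass the threshold between the gates. Birc2 had 65.4, 61.05 and 65.9 CPM in CD8-sorted cells, against 48.9, 97.4 and 82.4 CPM in CD4-sorted cells (log2 fold change -0.25 ± 0.22 SE, edgeR adjusted p = 0.47). Birc3 had 153, 186 and 173 CPM in CD8-sorted cells, against 127, 170.4 and 155 CPM in CD4-sorted cells (log2 fold change 0.18 ± 0.17 SE, edgeR adjusted p = 0.49). The groups overlapped for both. Of the 21 tested IAP, SMAC and death signaling genes, 2 rose and 2 fell (median log2 fold change -0.16). The calls of Ripk1 and Ripk3, both higher, and of Fadd, lower, each ended without at least 1 library. Among 16 genes of the alternative pathway, 0 rose and 2 fell (median log2 fold change -0.23). Map3k14 had 22.6, 16.3 and 16.3 CPM in CD8-sorted cells, against 46.5, 27.003 and 28.99 CPM in CD4-sorted cells (log2 fold change -0.89 ± 0.27 SE, edgeR adjusted p = 0.028). Traf3, the adaptor that marks NIK for destruction, had 56.04, 27.5 and 30.9 CPM in CD8-sorted cells, against 63.9, 71.9 and 71.5 CPM in CD4-sorted cells (log2 fold change -0.86 ± 0.25 SE, edgeR adjusted p = 0.022). The Map3k14 call ended without CD8-sorted replicate 2 or 3 or CD4-sorted replicate 1 (edgeR adjusted p from 0.11 to 0.14), and the Traf3 call ended without CD8-sorted replicate 2 or 3 or CD4-sorted replicate 2 (edgeR adjusted p from 0.061 to 0.12). Nfkb2, the pathway's precursor protein, had 391, 205 and 243 CPM in CD8-sorted cells, against 619.6, 307 and 427 CPM in CD4-sorted cells (log2 fold change -0.69 ± 0.24 SE, edgeR adjusted p = 0.053). Its partner Relb had 211, 149.9 and 181 CPM in CD8-sorted cells, against 293, 166 and 181 CPM in CD4-sorted cells (log2 fold change -0.24 ± 0.18 SE, edgeR adjusted p = 0.38). Both were short of the threshold. Of 23 classical targets, 1 rose and 5 fell (median log2 fold change -0.19), with 2 falls without CD8-sorted replicate 2. Nfkb1 had 61.9, 67.3 and 56.5 CPM in CD8-sorted cells, against 128, 124 and 102 CPM in CD4-sorted cells (log2 fold change -0.93 ± 0.13 SE, edgeR adjusted p = 0.00010). The inhibitor Nfkbid had 37.02, 19.3 and 33.3 CPM in CD8-sorted cells, against 124, 95.7 and 68.1 CPM in CD4-sorted cells (log2 fold change -1.68 ± 0.23 SE, edgeR adjusted p = 9.3e-05). Nfkbia, the main feedback inhibitor, had 626, 496 and 805 CPM in CD8-sorted cells, against 955, 571 and 766 CPM in CD4-sorted cells (log2 fold change -0.25 ± 0.19 SE, edgeR adjusted p = 0.38).

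In the BCL2 family 2 of 15 tested rose and 2 fell (median log2 fold change -0.02). Bcl2l11, the killer BIM, had 230.3, 235 and 207 CPM in CD8-sorted cells, against 24.3, 55.2 and 38.4 CPM in CD4-sorted cells (log2 fold change 2.51 ± 0.34 SE, edgeR adjusted p = 7.1e-05). The survival gene Bcl2 had 233, 379.9 and 359.8 CPM in CD8-sorted cells, against 199, 131 and 134 CPM in CD4-sorted cells (log2 fold change 1.07 ± 0.24 SE, edgeR adjusted p = 0.0052). Both opposing members were thus higher in CD8-sorted cells. Of 21 glycolysis and hypoxia genes, 0 rose and 7 fell (median log2 fold change -0.39), with 3 falls without CD8-sorted replicate 2 and 4 in limma voom. Hif1a, the hypoxia factor, had 229, 149.9 and 239 CPM in CD8-sorted cells, against 684, 1067 and 1042 CPM in CD4-sorted cells (log2 fold change -2.18 ± 0.34 SE, edgeR adjusted p = 0.00030). Its target Egln3 had 1.93, 1.53 and 1.82 CPM in CD8-sorted cells, against 30.97, 30.9 and 23.6 CPM in CD4-sorted cells (log2 fold change -4.01 ± 0.50 SE, edgeR adjusted p = 4.3e-05). Pkm, the last enzyme of glycolysis, had 704, 623 and 797 CPM in CD8-sorted cells, against 1612, 1216 and 1095 CPM in CD4-sorted cells (log2 fold change -0.89 ± 0.19 SE, edgeR adjusted p = 0.0040). Of 36 oxidative phosphorylation genes, 4 rose and 0 fell (median log2 fold change 0.09), and all 4 calls (Ndufa6, Sdhb, Cycs and Uqcrc2) ended without CD8-sorted replicate 2 or replicate 3. Of 34 cell cycle genes, 3 rose and 0 fell (median log2 fold change 0.51). Stmn1 had 193, 135 and 229 CPM in CD8-sorted cells, against 72.1, 76.5 and 102 CPM in CD4-sorted cells (log2 fold change 1.15 ± 0.27 SE, edgeR adjusted p = 0.0072). Mki67 had 92.8, 25.4 and 33.6 CPM in CD8-sorted cells, against 31.6, 28.5 and 40.1 CPM in CD4-sorted cells (log2 fold change 0.60 ± 0.55 SE, edgeR adjusted p = 0.49), with CD8-sorted replicate 1 alone above the rest. The number of rises in that list was 1 without CD8-sorted replicate 1 and 9 without CD4-sorted replicate 3. Of 33 interferon response genes, 2 rose and 3 fell (median log2 fold change -0.01), and in MHC class I presentation 0 of 16 tested rose and 4 fell (median log2 fold change -0.21), with 1 fall without CD8-sorted replicate 2 or 3. Tap2, a subunit of the peptide transporter, had 300.4, 286 and 307 CPM in CD8-sorted cells, against 572, 363 and 393 CPM in CD4-sorted cells (log2 fold change -0.57 ± 0.13 SE, edgeR adjusted p = 0.0057), and its log2 fold change was -0.36 without CD4-sorted replicate 1.

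The most extreme fold changes mostly belonged to genes with no count in 1 gate. Among the 10 largest rises, 7 had no count in CD4-sorted cells, and among the 10 largest falls, 8 had no count in CD8-sorted cells, so their fitted folds are given as lower bounds against 3 counts per library. Tlr11, a sensor of microbial profilin, was at 9.87, 72.6 and 34.4 CPM in CD8-sorted cells, against 0 CPM in each library of CD4-sorted cells and at least 299-fold higher. Ocstamp, a cell fusion gene, was at 5.87, 64.7 and 32.05 CPM in CD8-sorted cells, against 0 CPM in each library of CD4-sorted cells and at least 262-fold higher. Il12b, a subunit of IL-12 and IL-23, was at 1.64, 8.49 and 9.47 CPM in CD8-sorted cells, against 0 CPM in each library of CD4-sorted cells and at least 50.1-fold higher. All 3 were lowest in CD8-sorted replicate 1, as were the dendritic cell sum and Gzma, and their cell source was not tested. Mmp12, a macrophage elastase, was at 0.193, 5.32 and 27.8 CPM in CD8-sorted cells, against 0 CPM in each library of CD4-sorted cells, and its call ended without CD8-sorted replicate 3 (edgeR adjusted p = 0.085). Arpin, Fndc5, Serpinb8, Gpr141b, Dab2 and Cd8a complete the 10. With limma voom and sample weights, Tlr11, Ocstamp, Mmp12, Gpr141b, Il12b and Dab2 did not pass (adjusted p from 0.057 to 0.49). Among the falls, Serpina9, a serine protease inhibitor of germinal centers, was at 0 CPM in each library of CD8-sorted cells, against 116, 52.8 and 49.7 CPM in CD4-sorted cells and at least 478-fold lower. Slc7a10, an amino acid transporter, was at 0 CPM in each library of CD8-sorted cells, against 96.7, 22.3 and 47.03 CPM in CD4-sorted cells and at least 364-fold lower; it overlaps Lrp3, also among the 10, on the opposite strand. Fbn2, a fibrillin, was at 0 CPM in each library of CD8-sorted cells, against 49.4, 20.7 and 22.9 CPM in CD4-sorted cells and at least 204-fold lower. Akap6, Ecel1, Sostdc1, Chn1, Col16a1 and Mapk10 complete this set, and the Col16a1 call ended without any 1 of the CD8-sorted libraries (edgeR adjusted p from 0.054 to 0.078) and in limma voom (adjusted p = 0.055). In vehicle spleen, 9 of the 10 rises and 10 of the 10 falls passed in the same direction, and in LCL161 tumor 3 of the 10 rises did and none of the falls (edgeR adjusted p of 0.14 or more). In tumor the falls averaged at most 0.44 CPM in CD8-sorted and 2.85 CPM in CD4-sorted cells (both Col16a1), and Ecel1 had no count. At such levels this test cannot tell whether the gates differed in tumor for the falls.

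**Figure D4:**
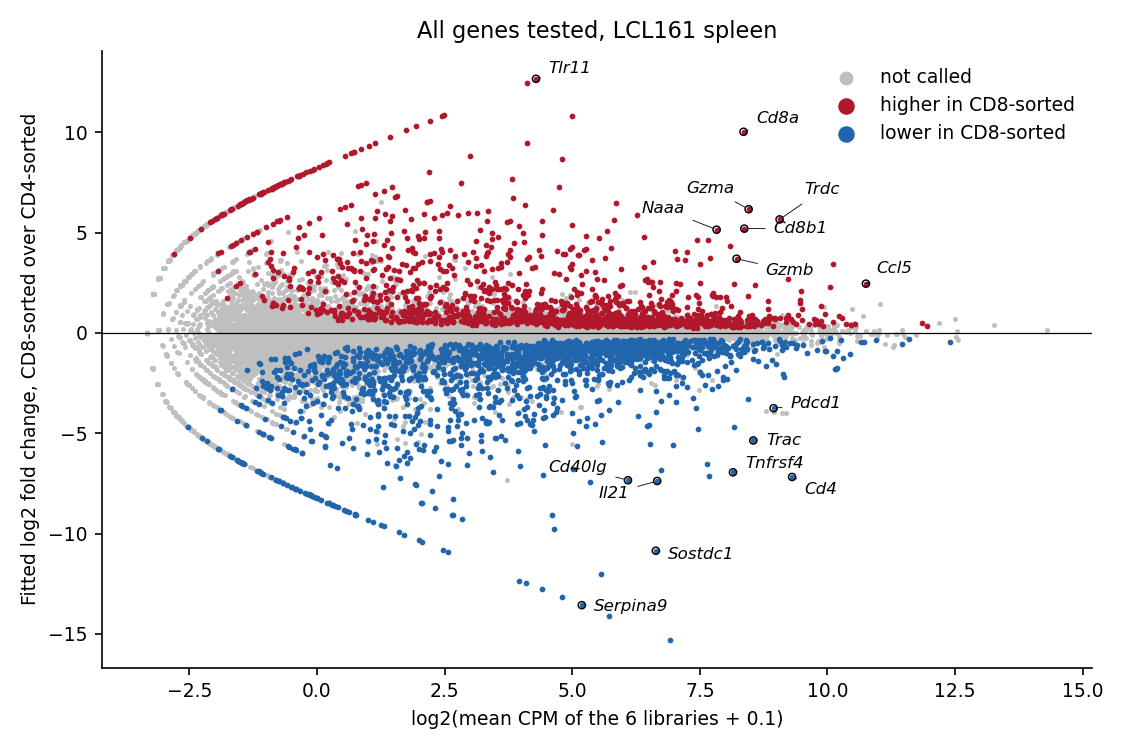
Fitted log2 fold change of CD8-sorted over CD4-sorted cells against log2 of the mean CPM of the 6 libraries, with 0.1 CPM added, for all 20174 genes tested in LCL161 spleen; red points were higher and blue points lower in CD8-sorted cells at an adjusted p of 0.05, and grey points did not pass. Cd8a, Gzma, Gzmb, Trdc and Ccl5 stand above 0, and Cd4, Tnfrsf4, Trac and Pdcd1 below it; the arcs at the edges are genes with no count in 1 gate.

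With vehicle in place of LCL161, 2302 genes passed between the gates (11.4%), 1074 higher (5.32%) and 1228 lower (6.09%) in CD8-sorted cells. The 2 comparisons share no library. Genes past the threshold in the same direction with both treatments numbered 1290 (580 higher, 710 lower), or 36.7% of the LCL161 set and 56.0% of the vehicle set, and 7 passed in opposite directions. Cd8a, Cd4, Zbtb7b, Cd40lg, Gzma, Gzmm, Cxcr5, Icos, Il21, Pdcd1, Ctla4 and Naaa passed in the same direction in both. The follicular list counted 1 higher and 11 lower of 15 with vehicle, the regulatory list 0 higher and 14 lower of 19, and the dendritic list 10 higher and 0 lower of 15. The cytotoxic list counted 3 higher and 2 lower of 19 with vehicle, and the constant genes 0 higher and 3 lower of 8. A difference between treatments was tested directly, as the LCL161 effect minus the vehicle effect. It passed for 59 of 20174 genes (0.292%), 12 higher (0.0595%) and 47 lower (0.233%), and 40 of these are among the 2218 genes called with LCL161 only. The count is unstable: 0 genes passed without CD8-sorted vehicle replicate 1 or replicate 2, with 2063 and 2147 at an unadjusted p under 0.05, 1 without CD8-sorted LCL161 replicate 3, 3 when only the 12 spleen libraries were fitted, and 314 without CD8-sorted LCL161 replicate 1.

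Zbtb7b was one of the 59, with a log2 fold change of -3.86 with LCL161 and -2.05 with vehicle (difference -1.81 ± 0.29 SE, edgeR adjusted p = 0.026, all differences being on the log2 scale). Its mean level was 2.77 CPM in CD8-sorted and 40.4 CPM in CD4-sorted cells with LCL161, and 8.93 CPM in CD8-sorted and 37.0 CPM in CD4-sorted cells with vehicle, so the CD8-sorted mean was lower with LCL161. Bcl6 fell with LCL161, and its log2 fold change with vehicle was -0.26 (-2.24 ± 0.42 SE, edgeR adjusted p = 0.028). Bcl6 averaged 15.7 CPM in CD8-sorted and 88.8 CPM in CD4-sorted cells with LCL161, and 47.6 CPM in CD8-sorted and 57.1 CPM in CD4-sorted cells with vehicle. Tgfb1 had a difference of -1.26 ± 0.23 SE (edgeR adjusted p = 0.026), and Lmo4, a LIM domain cofactor, of -1.9998 ± 0.40 SE (edgeR adjusted p = 0.041). Zbtb46, a factor of conventional dendritic cells, rose with vehicle and not with LCL161 (-3.09 ± 0.61 SE, edgeR adjusted p = 0.039). Zbtb46 averaged 30.8 CPM in CD8-sorted and 25.2 CPM in CD4-sorted cells with LCL161, and 105 CPM in CD8-sorted and 10.1 CPM in CD4-sorted cells with vehicle. The immediate early gene Arc (-2.52 ± 0.47 SE, edgeR adjusted p = 0.026) and the myeloid factor Cebpa (-3.24 ± 0.68 SE, edgeR adjusted p = 0.0499) also had lower effects with LCL161. So did the actin scaffold Palld (-4.34 ± 0.78 SE, edgeR adjusted p = 0.026) and the receptor adaptor Arrb1 (-2.55 ± 0.45 SE, edgeR adjusted p = 0.026). Higher effects were found for Gadd45g, a stress response gene (2.32 ± 0.43 SE, edgeR adjusted p = 0.026), and Cd7 (1.79 ± 0.36 SE, edgeR adjusted p = 0.040). The calcium sensor Ncald (2.42 ± 0.49 SE, edgeR adjusted p = 0.045), the receptor Gpr171 (1.38 ± 0.25 SE, edgeR adjusted p = 0.026) and Sla2, a negative regulator of receptor signaling (0.92 ± 0.17 SE, edgeR adjusted p = 0.026), also had higher effects. Cd7 had 520.4, 281 and 382 CPM in CD8-sorted cells, against 92.4, 141 and 158 CPM in CD4-sorted cells with LCL161. With vehicle it had 271, 397 and 239.9 CPM in CD8-sorted cells, against 294, 297 and 446 CPM in CD4-sorted cells, so CD4-sorted cells were lower with LCL161.

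For the delta and gamma constant genes, the difference between treatments did not pass the threshold. Trdc had 626, 567 and 698 CPM in CD8-sorted cells, against 279, 65.3 and 571 CPM in CD4-sorted cells with vehicle, where its log2 fold change was 1.05 (edgeR adjusted p = 0.56), and the CD4-sorted vehicle libraries spread widely. The difference between treatments was 4.61 ± 1.41 SE (edgeR adjusted p = 0.16) for Trdc and 4.35 ± 0.99 SE (edgeR adjusted p = 0.065) for Tcrg-C2. The gamma variable segment Tcrg-V4 did pass (4.58 ± 0.94 SE, edgeR adjusted p = 0.045). Tcrg-V4 averaged 62.1 CPM in CD8-sorted and 1.46 CPM in CD4-sorted cells with LCL161, and 31.6 CPM in CD8-sorted and 17.97 CPM in CD4-sorted cells with vehicle. Gzmb had 50.96, 91.5 and 108 CPM in CD8-sorted cells, against 56.6, 46.3 and 224 CPM in CD4-sorted cells with vehicle, and the difference between treatments was 4.08 ± 0.92 SE (edgeR adjusted p = 0.063); for Prf1 it was 2.696 ± 1.02 SE (edgeR adjusted p = 0.28). Gzmb and Prf1 passed with LCL161 and not with vehicle, and neither is shown to differ between treatments.

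**Figure D5:**
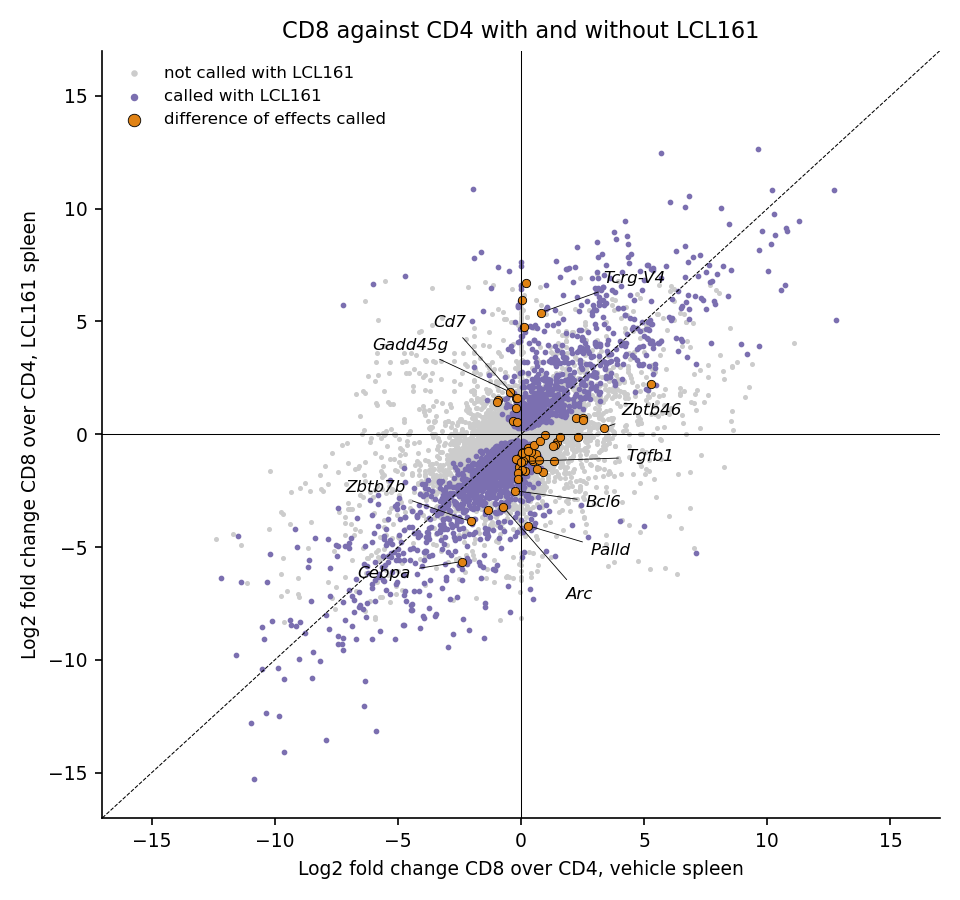
Log2 fold change of CD8-sorted over CD4-sorted spleen cells with LCL161 (vertical axis) against that with vehicle (horizontal axis) for each gene tested; purple points passed an adjusted p of 0.05 with LCL161, orange points are the 59 genes whose difference between treatments passed, grey points are all others, and the dashed line marks equal effects. Zbtb7b and Cebpa lie below the line with a fall in both, and Zbtb46 rose with vehicle only.

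Within tumors of LCL161-treated mice, 580 genes passed between the gates (2.87%), 289 higher (1.43%) and 291 lower (1.44%) in CD8-sorted cells. These libraries are separate from the spleen ones. Of the genes called in spleen, 289 passed in the same direction in tumor (8.22% of the spleen set and 49.8% of the tumor set), and 12 in the opposite direction. The difference between tissues, spleen effect minus tumor effect, passed for 664 genes (3.29%), 207 higher (1.03%) and 457 lower (2.27%), and for 543 of the 3214 genes called in spleen only. It fell on the follicular and regulatory lists in 1 direction: 6 of 15 and 8 of 19 members had a lower effect in spleen, and none a higher one. The direction was not particular to these lists. Lower effects and no higher ones were also found for 5 of 17 inhibitory receptor, 4 of 16 TNF receptor and 3 of 19 effector transcription factor genes. Of 26 chemokine and receptor genes 4 had a higher and 1 a lower effect, and of 15 dendritic markers 3 had a higher and 0 a lower one. Pdcd1 had a log2 fold change of -3.75 in spleen and 0.50 in tumor (-4.26 ± 1.09 SE, edgeR adjusted p = 0.038). Pdcd1 averaged 68.1 CPM in CD8-sorted and 918 CPM in CD4-sorted cells of spleen, and 397 CPM in CD8-sorted and 280.2 CPM in CD4-sorted cells of tumor. Tox (-3.94 ± 0.80 SE, edgeR adjusted p = 0.014), Tigit (-3.82 ± 0.64 SE, edgeR adjusted p = 0.0051), Bcl6 (-2.64 ± 0.43 SE, edgeR adjusted p = 0.0044) and Maf (-4.40 ± 0.76 SE, edgeR adjusted p = 0.0059) differed in the same direction. Tnfrsf4 fell in both tissues and further in spleen (-3.73 ± 0.67 SE, edgeR adjusted p = 0.0068). Tnfrsf4 averaged 4.56 CPM in CD8-sorted and 563 CPM in CD4-sorted cells of spleen, and 38.95 CPM in CD8-sorted and 362 CPM in CD4-sorted cells of tumor.

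Egr1 (-1.80 ± 0.37 SE, edgeR adjusted p = 0.014) and Nfkb1 (-1.10 ± 0.18 SE, edgeR adjusted p = 0.0049) also had lower effects in spleen. Ctsw, of the cytotoxic list, had a higher one (1.64 ± 0.29 SE, edgeR adjusted p = 0.0063). Ctsw averaged 540.1 CPM in CD8-sorted and 153 CPM in CD4-sorted cells of spleen, and 840.4 CPM in CD8-sorted and 743 CPM in CD4-sorted cells of tumor. The dendritic cell genes Naaa (3.69 ± 0.82 SE, edgeR adjusted p = 0.021) and Xcr1 (4.23 ± 0.83 SE, edgeR adjusted p = 0.011) had higher effects in spleen. Cd8a, Cd8b1, Cd4, Zbtb7b, Cd40lg, Trac, Gzma, Gzmb, Klrk1 and Klrd1 passed in the same direction in spleen and tumor. By the naming rule, Tlr11 (10.57 ± 1.97 SE, edgeR adjusted p = 0.0097), Ocstamp (10.93 ± 1.91 SE, edgeR adjusted p = 0.0068) and Mmp12 (12.44 ± 3.13 SE, edgeR adjusted p = 0.039) had higher effects in spleen. So did the mast cell proteases Cma1 (12.26 ± 2.62 SE, edgeR adjusted p = 0.020) and Cpa3 (9.96 ± 1.54 SE, edgeR adjusted p = 0.0034). The Cma1 and Cpa3 differences rest on the tumor. Cpa3 averaged 1.13 CPM in CD8-sorted and 0.3201 CPM in CD4-sorted cells of spleen, and 0.1402 CPM in CD8-sorted and 41.7 CPM in CD4-sorted cells of tumor. Slc7a10 (-18.43 ± 3.20 SE, edgeR adjusted p = 0.0087), Reep1 (-11.66 ± 2.19 SE, edgeR adjusted p = 0.013) and Lrrn3 (-10.74 ± 2.48 SE, edgeR adjusted p = 0.027) had lower effects in spleen. Lower effects were also found for Ces2c (-9.58 ± 2.51 SE, edgeR adjusted p = 0.046) and Slc43a1 (-7.79 ± 1.39 SE, edgeR adjusted p = 0.0065). A group with no count entered the differences of Tlr11, Ocstamp, Mmp12, Cma1, Slc7a10, Reep1 and Lrrn3, whose size depends on the prior count. In tumor, Ces2c averaged 0.120 CPM in CD8-sorted and 0.0185 CPM in CD4-sorted cells, and Slc43a1 0.0310 CPM in CD4-sorted cells. These means, and that of Cpa3 in CD8-sorted cells of tumor, lie under 3 counts per library, so the sizes of these differences are uncertain too. Without CD8-sorted spleen replicate 3, 224 genes passed this test, and without CD8-sorted spleen replicate 1, 1084.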

How the data were processed

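Bulk RNA-seq of FACS-sorted mouse cells was analysed from 1 table of 55025 gene symbols by 24 libraries. Adapters were trimmed with cutadapt and reads aligned to GRCm38 with STAR 2.7.3a, per the submitters' processing notes. The sources used here do not name the counting tool, annotation or strand setting. As deposited by the authors, the values are estimated counts per gene with no normalization. Of the non-zero values, 52.7% were fractional, and all were rounded to whole numbers. Columns were matched to samples by their names.

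Genes with enough counts (filterByExpr, minimum count 10; 20174 genes) were scaled by TMM (factors 0.94 to 1.05) and fitted in edgeR 4.0.16 (R 4.3.3) with a robust quasi-likelihood model of 8 group means over 24 libraries (16 residual degrees of freedom). Benjamini-Hochberg adjustment ran over all genes, with a threshold of 0.05. Each SE was worked back from the test, as the absolute log2 fold change over the square root of its F statistic. The model did not estimate it directly, and where a group had no count it depends on the prior count. CPM use TMM-scaled totals. Fitted log2 fold changes use edgeR's default prior count, and a prior count of 2 entered only the log CPM behind correlations between libraries. Where 1 gate had no count, the fold was bounded using 3 counts in each library (0.123 to 0.164 CPM), a floor for counting error only. Limma 3.58.1 and DESeq2 1.42.0 were alternatives, as were other scalings, filters, library sets, the replicate block and leaving out each library. Replicate pairs differed beyond counting error (chi-square per gene of 13.0 to 134.9), so each library counted once.

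Coordinates and overlaps are from GENCODE M21 (GRCm38), in which 53529 symbols were found; promoter sequences are from RefSeq (GRCm38.p6). The members and gene lists were chosen with earlier results of these data known. Genes named by rule were a panel, the 10 largest rises and falls among called genes with groups that did not overlap and at least 5 CPM, up to 4 called members of each list by adjusted p, and for differences of effects the 5 largest each way, leaving out predicted genes, pseudogenes and receptor segments. Nkg7, Fasl, Klrc1, Klrg1, Klra5, Eomes, Tbx21, Cxcr5, Tox2, Sh2d1a, Il10, Havcr2, Lta, Ccr7, Il7r, Myc, Egr2, Xcl1, S1pr5, Ifngr1, Clec9a, Mki67, Il17a, Itgae, Hbb-bs, Cd5, Lck, Lmo4, Tcrg-V4 and the other variable and joining segments were named after their values were seen, as were the differences between tissues given for Pdcd1, Tox, Tigit, Bcl6, Maf, Tnfrsf4, Xcr1, Naaa, Egr1, Nfkb1 and Ctsw and those between treatments for Zbtb7b, Bcl6, Tgfb1, Lmo4 and Tcrg-V4.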

Additional observations from a re-analysis of the deposited data

Results flagged for a closer look

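The genes below had an effect of CD8-sorted against CD4-sorted cells in LCL161 spleen that differed from the effect in another setting, by an edgeR quasi-likelihood test of the difference itself (Benjamini-Hochberg adjusted p under 0.05). Values are differences of log2 fold changes, LCL161 spleen minus the other setting.

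Against vehicle spleen the difference was positive for Ncald (2.42), Gadd45g (2.32), Cd7 (1.79), Gpr171 (1.38), Sla2 (0.92) and Tcrg-V4 (4.58). It was negative for Palld (-4.34), Cebpa (-3.24), Zbtb46 (-3.09), Arrb1 (-2.55), Arc (-2.52), Zbtb7b (-1.81), Bcl6 (-2.24), Tgfb1 (-1.26) and Lmo4 (-1.9998). None of the genes in this paragraph passed without CD8-sorted vehicle replicate 1, nor without CD8-sorted vehicle replicate 2. Only 3 genes of all tested passed when the 12 spleen libraries alone were fitted.

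Against LCL161 tumor the difference was positive for Tlr11 (10.57), Ocstamp (10.93), Mmp12 (12.44), Cma1 (12.26), Cpa3 (9.96), Xcr1 (4.23), Naaa (3.69) and Ctsw (1.64). It was negative for Slc7a10 (-18.43), Reep1 (-11.66), Lrrn3 (-10.74), Ces2c (-9.58), Slc43a1 (-7.79), Pdcd1 (-4.26), Tox (-3.94), Tigit (-3.82), Bcl6 (-2.64), Maf (-4.40), Tnfrsf4 (-3.73), Egr1 (-1.80) and Nfkb1 (-1.10). Those of Tlr11, Ocstamp, Mmp12, Cma1, Slc7a10, Reep1 and Lrrn3 involve a group with no count, so their size depends on the prior count. Those of Cpa3, Ces2c and Slc43a1 involve a tumor group that averaged under 3 counts per library, so their size is uncertain too. Groups of 3 libraries were too small for a test of single outlying libraries.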

How the results depend on the processing

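Of the 192 genes named as called, 145 to 192 stayed called in the same direction under each alternative (fewest when only the 6 libraries were fitted, most with DESeq2), 152 to 173 when 1 library was left out, and none reversed. For the main count of 3515, requiring at least a 2-fold change gave 1945 and fitting the 6 libraries alone gave 1381, and leaving out 1 library gave 1937 to 3531. For vehicle spleen (2302), the 2-fold limit gave 1501, voom 4452, and leaving out 1 library 1296 to 1844. For LCL161 tumor (580), DESeq2 gave 1206, voom 1063, and leaving out 1 library 206 to 461; without scaling, 61.2% of its calls were higher, against 49.8%. For LCL161 minus vehicle (59), no scaling gave 34, no filter 34, the 5 CPM filter 134, DESeq2 512, voom 565, the 12 spleen libraries 3, only the libraries compared 3, and leaving out 1 library 0 to 314. For spleen minus tumor (664), no filter gave 408, DESeq2 1561, voom 2208, only the libraries compared 249, and leaving out 1 library 224 to 1084. Among the gene lists, limma voom also counted 9 rises for oxidative phosphorylation (against 4) and 7 falls for neutrophil markers (against 2), and both DESeq2 and voom 9 rises for conventional dendritic cell markers (against 6). The cause of these shifts was not tested. Log2 fold changes that changed sign were all uncalled. Mki67 was -0.19 without CD8-sorted replicate 1 (range over left-out libraries -0.19 to 0.93). Relb was 0.046 without CD4-sorted replicate 1 (-0.39 to 0.046). Ifng was 0.38 without CD4-sorted replicate 3 (-1.06 to 0.38). The 12 spleen libraries give no tumor value. Where 1 library was left out, its group kept 2.

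Correlations of same-numbered deviations were -0.038 to 0.085 over the LCL161 spleen, vehicle spleen and LCL161 tumor pairs. In LCL161 spleen they were -0.017 to 0.060, against -0.090 to 0.083 for libraries with different numbers. In vehicle spleen they were 0.041 to 0.085, against -0.064 to -0.014. Whether same-numbered libraries came from the same mice cannot be told from these values. The replicate block gave 3138 calls for the main comparison, 1995 for vehicle spleen, 532 for tumor, 45 for LCL161 minus vehicle and 537 for spleen minus tumor, and 13 of the 192 named calls did not pass with it. The alternatives for vehicle spleen and LCL161 tumor, and those of genes named after their values were seen, were added after seeing the data. Depth limits what is said of genes near the floor of 3 counts.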
